A study of Mus musculus with 11 samples.

Results

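The Otx2 and Otx2os1 locus is taken here as a fixed interval of 350 kb on mouse chromosome 14 (mm10) around both genes. It held 33 of the 36097 non-coding features in the deposited table, 15 on the plus and 18 on the minus strand, from chr14:48579913 to position 48888775. Every feature overlapping the interval was taken, whatever its level. The libraries came from whole retina at postnatal day 21, 6 from Nrl knockout mice and 5 from wild-type mice. They were made from RNA depleted of polyadenylated transcripts and read as 50-bp stranded single ends. The sources used here do not give the knockout allele, the strain, the sex or any pooling of animals. Replicates are numbered but not tied to animals, so p-values reflect how far these libraries vary, and that variation may be technical. All values are the authors' normalised counts per feature, that is read counts divided by 1 size factor per library. Errors are SDs over 6 knockout and 5 wild-type libraries unless an SE is named.

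Otx2 encodes a homeodomain transcription factor that retinal progenitors need to make photoreceptors, and it stays active in photoreceptors, bipolar cells and the retinal pigment epithelium. Crx, its close relative, is a photoreceptor factor that binds the same kind of site. Otx2os1 is a long non-coding RNA gene on the opposite strand that starts inside the annotated Otx2 gene and runs past the Otx2 5′ end. Its exons are scattered along a gene body far longer than Otx2 itself. Nrl is the basic leucine zipper factor that makes photoreceptor precursors into rods. In its absence they become cone-like, so the comparison asks how the RNA of this locus differs between a retina rich in rods and one without them.

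The label was set against GENCODE M21, an annotation of that build. Otx2 (minus strand) lies at chr14:48657677-48673819 and Otx2os1 (plus strand) at chr14:48668708-48870683. No listed feature stood for the Otx2 mRNA, which was not analysed here, and 0 of the 33 features covered an exon of Otx2os1 on its own strand. What was listed inside Otx2os1 on its own strand is 6 plus-strand features that lie wholly within its introns. Whether they are parts of the Otx2os1 RNA was not tested. Another 11 features lay inside the Otx2os1 gene on the opposite strand, and 10 of the 33 overlapped no annotated gene on either strand. The features are therefore called by their assembled-transcript names, and distances are counted from position 48667644, the start of the outermost RefSeq Otx2 transcript.

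The listed features held 3374221 to 4876429 reads per knockout library and 3238184 to 4150460 per wild-type library, of which the 33 features of the locus took 11164 to 25849 in the knockout and 7103 to 12515 in wild type. A count of 0 in a library allows up to 3 reads, that is 2.28 to 3.12 normalised counts in the knockout and 2.78 to 4.11 in wild type. Intervals and floors cover counting error only. The Nrl mRNA was not analysed here. A feature opposite Nrl, MSTRG.28375, averaged 0.126 ± 0.310 in Nrl knockout and 42.1 ± 9.42 in wild-type libraries, but the sources used here do not say which part of Nrl was deleted, so it is no check of the deletion. Wild-type library 1 and knockout libraries 2 and 5 often held the extreme values of their group at this locus, and all 13 calls below held without any 1 library.

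The sequences at the points where the results turn are shown 5′ to 3′ on the strand named. The RefSeq sequence (GRCm38.p6) just upstream of Otx2, at chr14:48667645-48667894 on the minus strand, marks the zero point of all distances, and capitals mark a TATAAA match at its position 59, counted from 1 at the 5′ end.
Otx2 upstream sequence: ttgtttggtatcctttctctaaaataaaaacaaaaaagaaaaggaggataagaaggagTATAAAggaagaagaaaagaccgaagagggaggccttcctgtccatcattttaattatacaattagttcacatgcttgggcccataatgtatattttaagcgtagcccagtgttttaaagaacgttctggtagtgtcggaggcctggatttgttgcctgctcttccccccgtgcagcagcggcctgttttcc
The second exon of Otx2os1 (GENCODE M21, chr14:48670294-48670449, plus strand) lies inside the minus-strand feature MSTRG.27969 and is shown because both genes have sequence there, on opposite strands.
Otx2os1 exon 2: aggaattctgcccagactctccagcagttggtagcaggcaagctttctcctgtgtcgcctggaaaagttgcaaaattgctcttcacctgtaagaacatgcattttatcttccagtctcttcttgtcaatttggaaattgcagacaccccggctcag
The first 300 bases of exon 1 of Gm49156 (GENCODE M21, chr14:48740510-48740809, minus strand) lie where a minus-strand feature that was lower in the knockout and a plus-strand feature that was higher overlap, and capitals mark the reverse complement of TATAAA at position 146.
Gm49156 exon 1: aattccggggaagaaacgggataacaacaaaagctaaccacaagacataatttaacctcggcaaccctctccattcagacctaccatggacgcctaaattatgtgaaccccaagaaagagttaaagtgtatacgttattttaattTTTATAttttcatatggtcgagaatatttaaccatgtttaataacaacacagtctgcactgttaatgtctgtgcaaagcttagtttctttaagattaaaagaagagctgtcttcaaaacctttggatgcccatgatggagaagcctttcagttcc
The third exon of 4933429O19Rik (GENCODE M21, chr14:48885465-48885547, plus strand) belongs to the feature that was lower in the knockout beyond the far end of Otx2os1.
4933429O19Rik exon 3: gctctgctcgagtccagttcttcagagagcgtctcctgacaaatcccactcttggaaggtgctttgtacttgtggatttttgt

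The 4 RefSeq promoter windows of Otx2, each 250 bases before to 50 bases after a transcript start, were searched on both strands for 5 motifs. The homeodomain core of OTX and CRX (TAATCC), found in 7.06% of 32851 RefSeq promoter windows of that length, occurred 1 time in the window at chr14:48665060-48665359 and 0 times in the other 3. TGCTGA, a part of the MAF and NRL recognition element (in 19.5% of windows), occurred 1 time in that window and 1 time in the window at chr14:48667459-48667758. The E-box CACGTG (7.15%) and the GC box GGGCGG (35.7%) were in none of the 4, and TATAAA (13.6%) was in the outermost one alone. Such matches describe letters, not bound sites.

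Of the 33 features, 21 had a mean of at least 5 normalised counts over the 11 libraries and were tested with limma, 11 on the plus and 10 on the minus strand. In the Nrl knockout 11 of these 21 were higher, 6 on the plus and 5 on the minus strand. A further 2 were lower and 8 did not pass an adjusted p of 0.05. Over all 21395 features tested in the table, 15.6% were higher and 12.6% lower, 28.1% in either direction. The median log2 difference of the 21 was 0.61, against -0.02 over the whole tested table. Knockout and wild-type ranges were separate in 8 of the higher and both of the lower features, as they were for 11.1% and 9.13% of the tested table, 20.2% in either direction. On whole reads of 9 libraries, edgeR and DESeq2 each called 12 of the 21 higher and 2 lower, where they called 26.8% and 25.6% of the tested table. With no filter on the mean, 13 of the 33 were higher and 4 lower by limma, where 12% and 9.12% of all features were, 21.1% in either direction. Unless another method or pseudocount is named, log2 differences are on the log2(normalised count + 1) scale, which understates changes of low features.

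By position, all 6 tested features beyond the 3′ end of Otx2 were higher in the knockout, as were all 3 tested features at Otx2. Inside the rest of the Otx2os1 gene, 2 of 6 tested plus-strand features were higher, while 1 of 5 tested minus-strand features was lower. The single tested feature beyond the 3′ end of Otx2os1 was lower. The 12 untested features, 5 beyond the Otx2 3′ end, 1 at Otx2, 4 in the Otx2os1 body and 2 beyond its end, had means of 2.15 to 4.89.

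**Figure D1:**
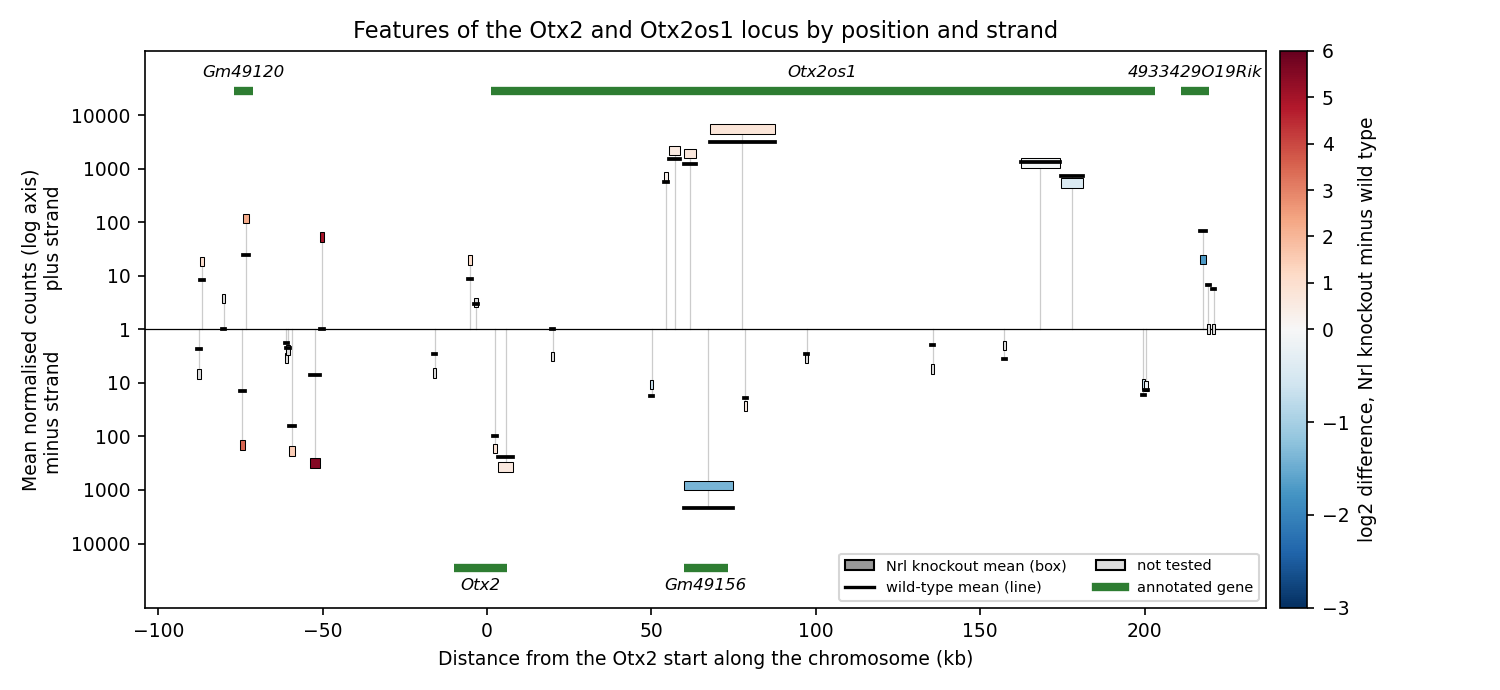
Each box is the mean normalised count of 1 feature in Nrl knockout libraries and each black line its mean in wild-type libraries, on a log axis that runs up for the plus and down for the minus strand, against distance from the Otx2 start in kb; means under 1 are drawn at 1 and colour gives the log2 difference. The deepest red boxes, MSTRG.27960 and MSTRG.27961, are centred at -52.4 and -50.2 kb, and the wide pale red box of MSTRG.27978 at 77.7 kb faces the blue one of MSTRG.27976 at 67.3 kb on the opposite strand.

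The sharpest differences lay in the intergenic stretch beyond the 3′ end of Otx2, in a pair of features on opposite strands that were low in wild-type retina. MSTRG.27960 (chr14:48613753-48616703, minus strand, 2951 bp, no annotated gene) had 209 to 355 normalised counts over the 6 Nrl knockout libraries (median 335), against 10.97, 8.47, 1.86, 1.93 and 13.1 in wild-type libraries 1 to 5. Every knockout library was more than 10 times the highest wild-type one. The means were 311 ± 57.4 in Nrl knockout and 7.27 ± 5.17 in wild-type libraries (SD, n = 6 and 5), a log2 difference of 5.52 (SE 0.34, limma adjusted p = 3.91e-12). Whole reads were compared over the 5 knockout and 4 wild-type libraries that edgeR and DESeq2 used. There it held 1640 reads in the knockout and 21 in wild type, a ratio of 54.9 after depth (95% exact interval 35.8 to 88.9, counting error only).

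MSTRG.27961 (chr14:48616885-48617907, plus strand) has its 5′ end beside that of MSTRG.27960 and reads the other way. It had 35.6 to 75.8 normalised counts over the 6 Nrl knockout libraries (median 49.3), against 0, 0.941, 0, 1.93 and 1.01 in wild-type libraries 1 to 5, where 2 libraries were at 0. No wild-type library exceeded the floor that a count of 0 allows, 3 reads or 2.78 to 4.11 normalised counts. The read totals were 283 in 5 knockout libraries and 3 in 4 wild-type libraries, a ratio of 66.3 (95% exact interval 22.5 to 324). The fitted log2 difference was 5.00 (SE 0.34, limma adjusted p = 5.96e-12), a value that depends on the pseudocount.

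Nearer to the Gm49120 gene, a long non-coding RNA gene on the plus strand, lay a second pair on opposite strands, overlapping by 521 bp. MSTRG.27954 (chr14:48592389-48593993, minus strand, opposite a Gm49120 intron) had 109 to 177 normalised counts over the 6 Nrl knockout libraries (median 148), against 34.3, 11.3, 8.35, 6.77 and 10.1 in wild-type libraries 1 to 5. Wild-type library 1 stood apart from the other 4, and the groups did not overlap. Its log2 difference was 3.49 (SE 0.29, limma adjusted p = 2.15e-10). MSTRG.27955 (chr14:48593473-48595355, plus strand, in a Gm49120 intron) had 86.3 to 164 normalised counts over the 6 Nrl knockout libraries (median 111), against 30.2, 19.8, 22.3, 16.4 and 35.3 in wild type. A log2 difference of 2.21 (SE 0.22, limma adjusted p = 7.99e-09) resulted, again with no overlap between the groups.

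The remaining called features of this stretch differed less. MSTRG.27959 (chr14:48607399-48609165, minus strand, no annotated gene) had 127 to 258 normalised counts over the 6 Nrl knockout libraries (median 177), against 78.2, 58.3, 52.0, 61.9 and 69.6 in wild-type libraries 1 to 5, and a log2 difference of 1.49 (SE 0.20, limma adjusted p = 8.35e-07). Unlike its neighbour MSTRG.27960 it was well above the floor in every wild-type library. MSTRG.27952 (chr14:48580627-48581169, plus strand, no annotated gene) had 12.1 to 27.8 normalised counts over the 6 Nrl knockout libraries (median 15.3), against 6.86, 6.59, 6.50, 10.6 and 11.1 in wild type, and a log2 difference of 1.02 (SE 0.30, limma adjusted p = 0.0103). Both showed no overlap between the groups. Summed over the 11 features beyond the Otx2 3′ end, the level was 854 ± 171 in Nrl knockout and 129 ± 28.0 in wild-type libraries (SD), a ratio of 6.62 given as a description.

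Of the 5 untested features there, MSTRG.27953 (178 bp, plus strand) averaged 3.76 normalised counts in the knockout and 0.376 in wild type. In whole reads it held 24 in 5 knockout libraries and 2 in 4 wild-type libraries, a ratio of 8.44 (95% exact interval 2.09 to 73.7). In the authors' deposited table it was called higher, with a log2 fold change of 3.16 and an adjusted p-value of 0.0324. The other 4 (MSTRG.27951, MSTRG.27957, MSTRG.27958 and MSTRG.27962) averaged 2.41 to 6.84 in the knockout and 1.79 to 2.95 in wild type, and the authors' deposited table called none of them.

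At Otx2 itself, 4 features were listed, none of them the mature transcript. MSTRG.27970 (chr14:48671115-48675414, minus strand, 4300 bp) lies upstream of the RefSeq start and overlaps the first exon of a longer GENCODE isoform of Otx2 and the annotated gene Gm49154, which is marked for experimental follow-up. It also faces an Otx2os1 exon on the other strand. It had 241 to 472 normalised counts over the 6 Nrl knockout libraries (median 393), against 276, 254, 206, 233 and 238 in wild-type libraries 1 to 5. Knockout library 5 fell among the wild-type values and the other 5 knockout libraries were above all of them. The means were 375 ± 78.8 in Nrl knockout and 241 ± 25.8 in wild-type libraries, a log2 difference of 0.61 (SE 0.17, limma adjusted p = 0.00781), with an exact two-sided permutation p of 0.0108.

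MSTRG.27969 (chr14:48669545-48670489, minus strand) lies in the intron of that longer Otx2 isoform and covers the Otx2os1 exon printed above on the opposite strand. It had 102 to 221 normalised counts over the 6 Nrl knockout libraries (median 169), against 123, 97.9, 80.7, 82.2 and 99.9 in wild-type libraries 1 to 5. Here too the groups overlapped, through knockout library 5 and wild-type library 1. Its log2 difference was 0.76 (SE 0.20, limma adjusted p = 0.00499), with an exact permutation p of 0.00866. The ratio of MSTRG.27969 to MSTRG.27970 within a library was 0.380 to 0.535 in the Nrl knockout libraries and 0.353 to 0.448 in the wild-type libraries and the ranges overlapped.

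MSTRG.27966 (chr14:48662144-48662695, plus strand, 552 bp) runs opposite an Otx2 exon. It had 12.4 to 26.0 normalised counts over the 6 Nrl knockout libraries (median 19.6), against 9.60, 6.59, 9.28, 8.71 and 9.08 in wild-type libraries 1 to 5. The groups did not overlap, and its log2 difference came to 1.07 (SE 0.27, limma adjusted p = 0.00290). The untested MSTRG.27967 (plus strand, opposite an Otx2 intron) averaged 3.15 in the knockout and 3.03 in wild type, near the floor in both. Per kilobase, MSTRG.27969 stood at 178 normalised counts in the knockout and 102 in wild type, MSTRG.27970 at 87.3 in the knockout and 56.1 in wild type, and MSTRG.27966 at 35.4 in the knockout and 15.7 in wild type.

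Reads were stranded per the labels' protocols, but the sources used here do not say whether counting used strand. Without it, a read could belong to a feature or to the gene facing it on the other strand. That bears on the features opposite Otx2 and Otx2os1 exons. MSTRG.27977 lies wholly inside MSTRG.27976 on the other strand, and in the knockout they averaged 1910 and 818 normalised counts. In wild type they averaged 1196 and 2137. With the knockout values, reads over the shared bases cannot all have been counted for both features. How strand entered the counting was not tested.

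**Figure D2:**
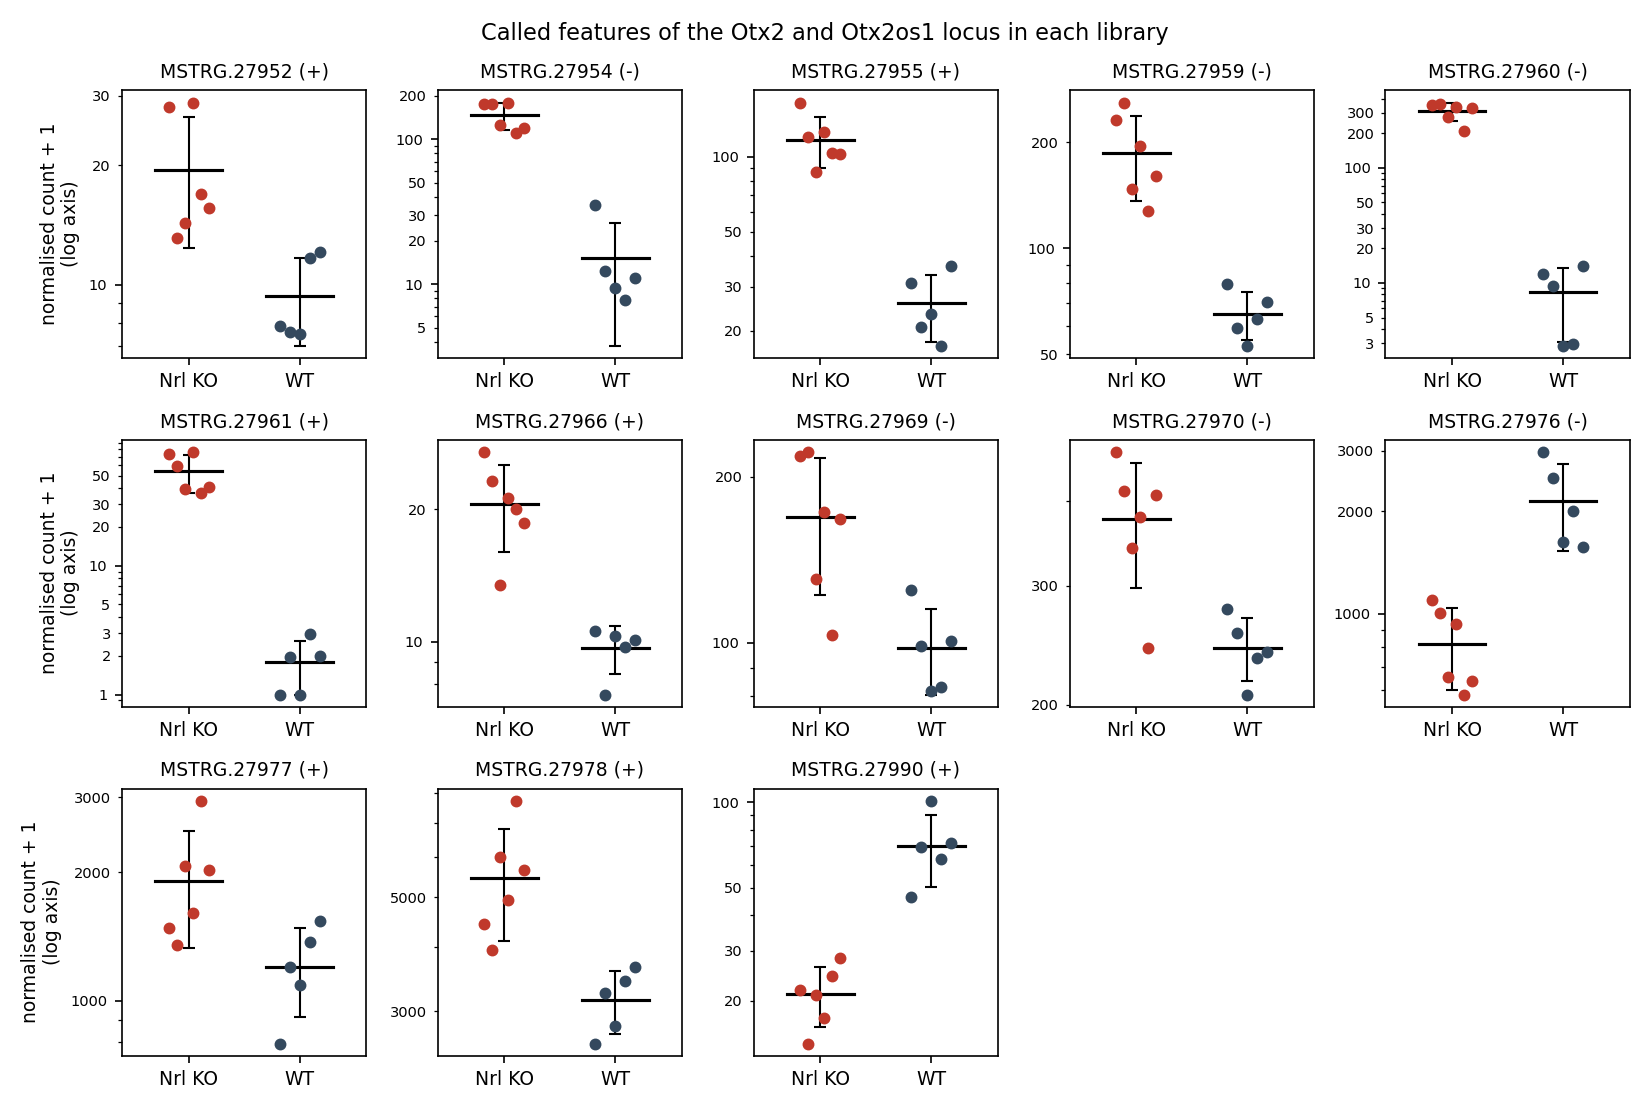
Each panel shows 1 called feature, with its strand in the title, as normalised count + 1 on a log axis; points are libraries, Nrl knockout left (6) and wild type right (5), with the mean as a line and the SD as a bar. The 11 features higher and the 2 lower in the knockout (MSTRG.27976 and MSTRG.27990) are shown, and the groups overlap in MSTRG.27969, MSTRG.27970 and MSTRG.27977.

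The bulk of the locus's signal lay in features within introns of Otx2os1, on its own strand. MSTRG.27978 (chr14:48735582-48755083, plus strand, 19502 bp) alone held 37.9% of the normalised counts of all 33 features in the knockout and 28.1% in wild type. It had 3943 to 7722 normalised counts over the 6 Nrl knockout libraries (median 5303), against 2595, 3253, 2806, 3436 and 3654 in wild-type libraries 1 to 5. All 6 knockout libraries were above all 5 wild-type libraries, with library 5 the highest of the knockouts. The means were 5451 ± 1345 in Nrl knockout and 3149 ± 439.5 in wild-type libraries, a log2 difference of 0.77 (SE 0.16, limma adjusted p = 0.000467), with an exact permutation p of 0.00433.

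Upstream of it within the same gene body, MSTRG.27977 (chr14:48727637-48731101) had 1346 to 2941 normalised counts over the 6 Nrl knockout libraries (median 1813), against 793, 1196, 1086, 1369 and 1535 in wild-type libraries 1 to 5. The groups overlapped. For this feature the log2 difference came to 0.66 (SE 0.19, limma adjusted p = 0.00943). That call was lost when values were rescaled to equal totals (adjusted p = 0.0507) and when the variance was moderated without a trend (adjusted p = 0.0730). MSTRG.27975 (chr14:48722879-48726458) had 1489 to 3498 normalised counts over the 6 Nrl knockout libraries (median 2079), against 975, 1395, 1428, 1828 and 1808 in wild type. Its log2 difference of 0.53 (SE 0.20, limma adjusted p = 0.0505) narrowly missed the threshold, and it passed under 10 alternative settings, including edgeR and DESeq2 on whole reads. MSTRG.27974 (chr14:48721314-48722784), the first of the row, was not called, at 689 ± 192 in Nrl knockout and 568 ± 133 in wild-type libraries and a log2 difference of 0.27 (SE 0.19, limma adjusted p = 0.345).

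Toward the 3′ end of Otx2os1 neither plus-strand feature was called. MSTRG.27984 (chr14:48830061-48841832) averaged 1279 ± 396 in Nrl knockout and 1321 ± 261 in wild-type libraries, a log2 difference of -0.08 (SE 0.19, limma adjusted p = 0.827) whose sign turned under 5 of the alternative settings. MSTRG.27985 (chr14:48842344-48849056) had 391 to 797 normalised counts over the 6 Nrl knockout libraries (median 507), against 443, 796, 781, 755 and 864 in wild-type libraries 1 to 5. Wild-type library 1 was far below the other 4 and inside the knockout range. Its log2 difference came to -0.43 (SE 0.19, limma adjusted p = 0.106), not called, and it passed as lower without wild-type library 1, without knockout library 5 and with the replicate block.

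Ratios within a library, which cancel its size factor, describe the proportions among these intronic features. MSTRG.27985 per MSTRG.27978 was 0.0921 to 0.103 in the Nrl knockout libraries and 0.171 to 0.279 in the wild-type libraries. MSTRG.27984 per MSTRG.27978 was 0.213 to 0.252 in the Nrl knockout libraries and 0.338 to 0.484 in the wild-type libraries. Neither pair of ranges overlapped. On the near side the ranges lay closer. There MSTRG.27974 per MSTRG.27978 was 0.121 to 0.132 in the Nrl knockout libraries and 0.138 to 0.200 in the wild-type libraries, also without overlap. For MSTRG.27975 per MSTRG.27978 (0.346 to 0.453 in the Nrl knockout libraries and 0.376 to 0.532 in the wild-type libraries) and MSTRG.27977 per MSTRG.27978 (0.325 to 0.381 in the Nrl knockout libraries and 0.305 to 0.420 in the wild-type libraries) the ranges overlapped.

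Compared per kilobase, the order of these features was not that of their totals. MSTRG.27975 was densest in both groups, at 611 normalised counts per kb in the knockout and 415 in wild type. MSTRG.27977 stood at 551 in the knockout and 345 in wild type, and MSTRG.27974 at 469 in the knockout and 386 in wild type, so these traded places between the groups. In wild type, MSTRG.27974 and MSTRG.27975 differed by less than their SDs over libraries (90.5 and 98.1). Those SDs ignore that both were measured in the same libraries, and MSTRG.27975 was the denser in every wild-type library. MSTRG.27978 followed at 279.5 in the knockout and 161 in wild type. The lowest were MSTRG.27984 at 109 in the knockout and 112 in wild type and MSTRG.27985 at 80.7 in the knockout and 108 in wild type.

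On the opposite strand the locus's most abundant minus-strand feature was lower in the knockout. MSTRG.27976 (chr14:48727636-48742325, 14690 bp) overlaps most of the annotated long non-coding RNA gene Gm49156, whose first exon is printed above. It had 580.1 to 1100.1 normalised counts over the 6 Nrl knockout libraries (median 793), against 2986, 2504, 1623, 2000.4 and 1571 in wild-type libraries 1 to 5. Every wild-type library was above every knockout library. The means were 818 ± 222 in Nrl knockout and 2137 ± 604 in wild-type libraries, a log2 difference of -1.38 (SE 0.19, limma adjusted p = 1.95e-06), with an exact permutation p of 0.00216, the smallest that the splits of 11 libraries into 6 and 5 can give.

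MSTRG.27976 contains the whole of MSTRG.27977 and 6744 bp of MSTRG.27978 on the other strand, that is 45.9% of MSTRG.27976 and 34.6% of MSTRG.27978. Features sharing the same bases thus differed in opposite directions between the genotypes. MSTRG.27976 per MSTRG.27978 within a library was 0.0751 to 0.256 in the Nrl knockout libraries and 0.430 to 1.15 in the wild-type libraries, without overlap. Knockout library 5 had the highest MSTRG.27978 and the lowest MSTRG.27976 of the 6. At the other end the knockouts did not mirror each other, since MSTRG.27978 was lowest in library 2 and MSTRG.27976 highest in library 1. Wild-type library 1 had the lowest MSTRG.27978 and the highest MSTRG.27976 of the 5, and wild-type library 5 the highest MSTRG.27978 and the lowest MSTRG.27976.

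**Figure D3:**
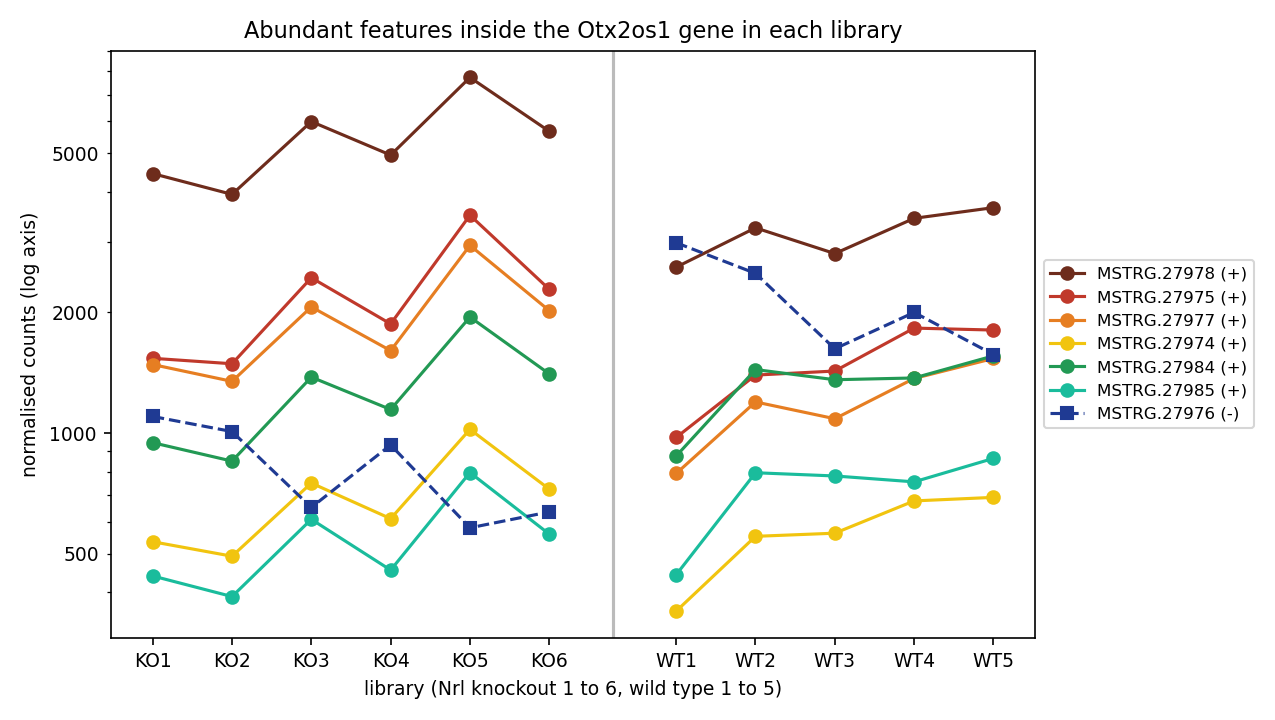
Normalised counts (log axis) of the 7 most abundant features inside the Otx2os1 gene in Nrl knockout libraries 1 to 6 and wild-type libraries 1 to 5; lines join the values of 1 feature and imply no order of libraries. Among the knockout libraries each of the 6 plus-strand features (circles) is highest in library 5 and lowest in library 2. MSTRG.27976 on the minus strand (squares) is between 580.1 and 1100.1 in the knockout and between 1571 and 2986 in wild type.

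The knockout library that stood highest among the 6 for the plus-strand features inside Otx2os1, knockout 5, had the smallest share of reads in its 10 most abundant features (33.9%). Among knockouts the library that stood lowest, knockout 2, had the largest (53.5%), and wild-type library 1 had the largest of the wild types (46.4%). Over the groups this share was 33.9% to 53.5% in the knockout and 34.8% to 46.4% in wild type, and its part in the results was not tested. The median of the 1535 other features of 5 kb or more was 289 to 331 normalised counts in knockout and 300.3 to 339 in wild-type libraries.

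Beyond Otx2, the other minus-strand features opposite the Otx2os1 gene were low, and none of the 4 tested was called by limma. MSTRG.27973 (chr14:48717414-48717984), opposite an Otx2os1 exon, had 6.83 to 14.1 normalised counts over the 6 Nrl knockout libraries (median 10.998), against 23.3, 21.6, 13.9, 14.5 and 15.1 in wild-type libraries 1 to 5. The groups overlapped, at a log2 difference of -0.69 (SE 0.28, limma adjusted p = 0.0714). It passed as lower under 2 alternatives (adjusted p = 0.0447 and 0.0466, limma). MSTRG.27979, 230 bp long and wholly opposite MSTRG.27978, averaged 27.0 ± 13.8 in Nrl knockout and 18.9 ± 9.65 in wild-type libraries, with a log2 difference of 0.52 (SE 0.33, limma adjusted p = 0.272). MSTRG.27987, over the pseudogene Gm49155, had a log2 difference of -0.68 (SE 0.33, limma adjusted p = 0.135), and MSTRG.27988 beside it one of -0.23 (SE 0.30, limma adjusted p = 0.648). The 4 untested ones (MSTRG.27971, MSTRG.27980, MSTRG.27982 and MSTRG.27983) averaged 2.01 to 5.49 in the knockout and 0.866 to 3.56 in wild type.

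Summed over strands, the 15 plus-strand features held 12294 ± 3372 in Nrl knockout and 8577 ± 1570.5 in wild-type libraries (SD). The 18 minus-strand features held 2098 ± 456 in Nrl knockout and 2646 ± 659 in wild-type libraries. Without MSTRG.27976 the remaining 17 minus-strand features held 1279 ± 247 in Nrl knockout and 509 ± 66.1 in wild-type libraries, so 1 feature set the direction of that strand's total. These sums are descriptions and carry no test.

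Past the far end of Otx2os1, 3 plus-strand features at or just beyond 4933429O19Rik, an annotated non-coding transcript, were all lower in level in the knockout, and 1 could be tested. MSTRG.27990 (chr14:48884409-48886428), which covers the 4933429O19Rik exon printed above, had 13.1 to 27.3 normalised counts over the 6 Nrl knockout libraries (median 20.4), against 45.3, 68.7, 100.2, 61.9 and 70.6 in wild-type libraries 1 to 5. The groups did not overlap, and its log2 difference came to -1.72 (SE 0.24, limma adjusted p = 1.71e-06). MSTRG.27991, over the same gene, averaged 0.832 in the knockout and 6.65 in wild type. In whole reads it held 5 in 5 knockout libraries and 23 in 4 wild-type libraries, a ratio of 0.153 (95% exact interval 0.0454 to 0.411). MSTRG.27992, beyond the annotated end of that gene, had 1 read in 5 knockout libraries and 23 in 4 wild-type libraries. The ratio was 0.0306 (95% exact interval 0.000742 to 0.188). Over all knockout libraries, 5 of 6 were at 0. The authors' deposited table called both lower, with log2 fold changes of -3.07 and -4.57 and adjusted p-values of 0.00211 and 0.000131.

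**Figure D4:**
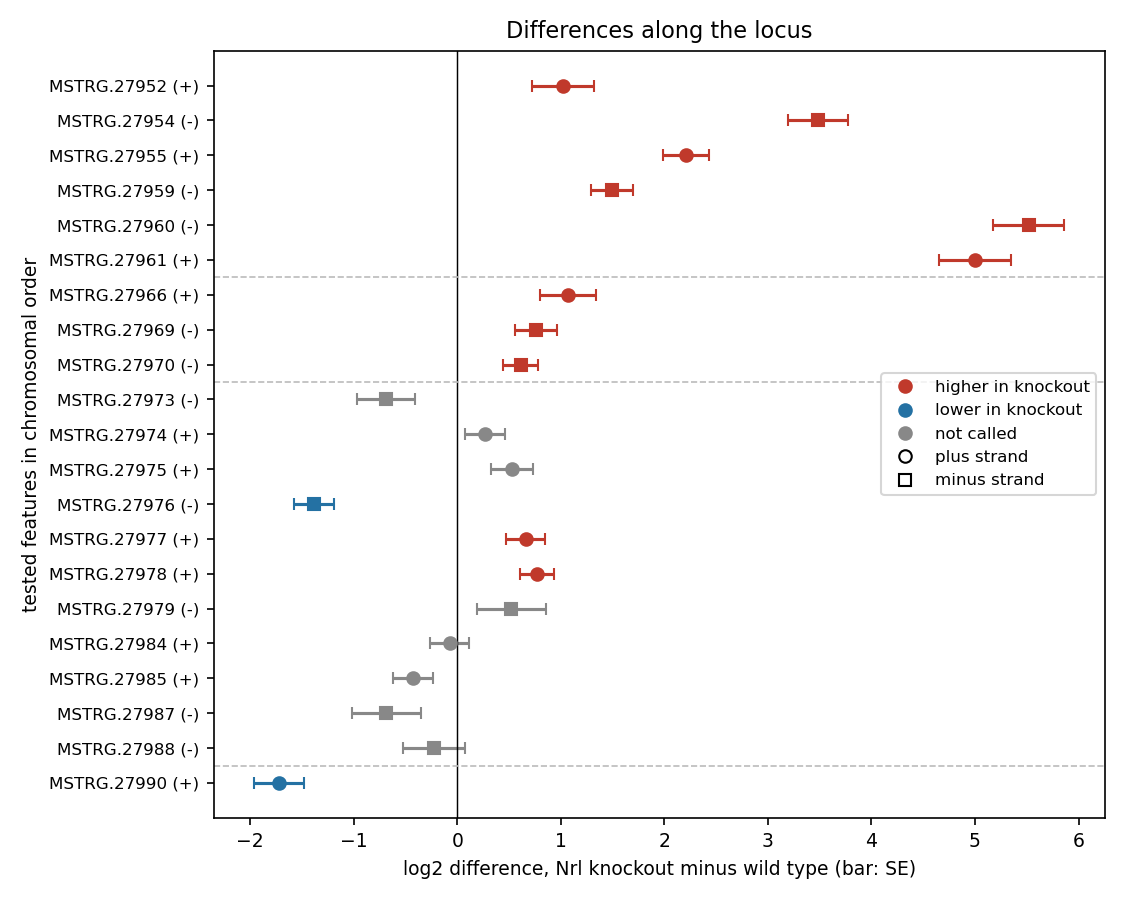
Log2 difference (Nrl knockout minus wild type) with its SE for the 21 tested features from low to high position, circles for the plus and squares for the minus strand, with dashed lines between the stretches beyond the Otx2 3′ end, at Otx2, along Otx2os1 and beyond its 3′ end. The values peak at 5.52 for MSTRG.27960, lie between 0.61 and 1.07 at Otx2, and are lowest at -1.72 for MSTRG.27990.

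Over the whole locus the authors' deposited table called 12 of the 33 features higher and 4 lower at an adjusted p-value under 0.05, where it called 10.9% and 8.48% of all 36097 features. That table also places all 33 in 1 chromosomal domain of 46 features and lists Otx2 as the mRNA that is higher there, with none lower. The sources used here do not say how domains and mRNA lists were made. Of the domain's features outside the locus, 3 (MSTRG.27946, MSTRG.27993 and MSTRG.27994) could be tested. All were called (100%), 2 higher (66.7%) and 1 lower (33.3%). The rest were too low to test.

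The locus lies on the same chromosome as the targeted gene, with 6851162 bp between the GENCODE starts of Otx2 and Nrl. Among the other features within 10 Mb of Nrl, 48.8% of 215 tested were called (18.1% higher and 30.7% lower), against 22.6% of 695 on chromosome 14 beyond that distance. In the 350 kb on either side of the locus, 15 features were listed and 5 could be tested. All 5 were called (100%), 2 higher (40%) and 3 lower (60%), and they include the tested domain features named above. The higher ones, MSTRG.27993 and MSTRG.27994, stood at 14.9 and 50.5 normalised counts in the knockout and 0.774 and 3.38 in wild type, just past the end of the interval. The part of nearness to Nrl in the differences was not tested.

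Features elsewhere in the genome whose profile over the 11 libraries was most like that of a locus feature were ranked among 8248 candidates by the root mean square difference between centred log2 profiles. For MSTRG.27978 the nearest were MSTRG.52268 on chromosome 2 (0.117), MSTRG.56251 on chromosome 3 (0.121) and MSTRG.77949 on chromosome 7 (0.132, opposite Rpl7a-ps14), followed by MSTRG.54787 on chromosome 3 (0.141) and MSTRG.14695 on chromosome 11 (0.160, opposite Shisa6). The median over all candidates was 0.665. For MSTRG.27970 they were MSTRG.54988 on chromosome 3 (0.147, opposite Gm30340), MSTRG.70108 on chromosome 5 (0.157), MSTRG.23671 on chromosome 13 (0.159, over A730091E23Rik), MSTRG.42254 on chromosome 18 (0.162, opposite 1700066B19Rik) and MSTRG.29100 on chromosome 14 (0.165, opposite Xpo7). The median there was 0.594. All 10 were called higher in the knockout by limma, and the likeness is a description over libraries that share a genotype split.

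The same table holds features at other transcription factor genes of photoreceptors and bipolar cells, all on the strand opposite the gene. Of a list of 32 such genes, 20 had 48 tested features, of which 12 were higher, 15 lower and 21 not called. Over all tested features 15.6% were higher and 12.6% lower, 28.1% in either direction. The median log2 difference of the 48 was -0.02, the value for the whole tested table. The largest decreases were at Esrrb, a rod nuclear receptor gene, where MSTRG.21447 averaged 2.04 ± 1.77 in Nrl knockout and 360.5 ± 106 in wild-type libraries, a log2 difference of -7.12 (SE 0.38, limma adjusted p = 3.11e-14). MSTRG.21442, also at Esrrb, fell by 5.41 on that scale, and MSTRG.28375, opposite Nrl itself, fell by 5.27. The largest increases were at Esrrg, a related nuclear receptor gene, where MSTRG.6882 averaged 416 ± 82.0 in Nrl knockout and 35.8 ± 6.00 in wild-type libraries, a log2 difference of 3.50 (SE 0.18, limma adjusted p = 1.93e-14), and MSTRG.6877 and MSTRG.6880 followed at 3.38 and 3.20. Both features opposite Crx were lower, by log2 differences of -1.37 and -0.85. The most abundant feature not called, MSTRG.57050 opposite Mef2d, averaged 287 ± 89.0 in Nrl knockout and 253 ± 62.0 in wild-type libraries.

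Among 15 long non-coding RNA genes named in retina or beside developmental regulators, 3 had tested features, 21 in all. By limma 3 of them were called, all lower and all at Vax2os, which lies beside the ventral eye regulator gene Vax2. Over all tested features 28.1% were called and 12.6% were lower. MSTRG.74898 and MSTRG.74902 lie on the strand opposite Vax2os, at 2117 and 273 normalised counts in wild type and 5.32 and 2.30 in the knockout. On the Vax2os strand, MSTRG.74899 averaged 60.4 in wild type and 3.22 in the knockout. The 17 features at Sox2ot, the transcript that overlaps the progenitor factor gene Sox2, and the single one at Meg3 were not called.

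Features at cell-type marker genes were counted by direction. Over all tested features 15.6% were higher in the knockout and 12.6% lower, 28.1% in either direction. In whole retina fewer cells of a type and less RNA per cell cannot be told apart. All tested features at marker genes lay on the strand opposite the gene, except MSTRG.34675 on the strand of Cebpd. The opposite-strand features are not the marker mRNAs. At 15 of 18 rod genes, 29 of 40 tested features were lower and 4 higher, with summed levels of 406 to 655 normalised counts in the knockout and 3249 to 5443 in wild type. At 10 of 14 cone genes, 20 of 29 were higher and 2 lower, summing to 1231 to 1938 in the knockout and 348 to 394 in wild type. At 9 of 14 bipolar genes, 2 of 19 were higher and 1 lower, summing to 528 to 782 in the knockout and 415 to 687 in wild type. At the 12 retinal pigment epithelium genes, 13 features, all at Trpm1 or Trpm3, were tested and 1 was called, lower. They summed to 174 to 327 in the knockout and 233 to 383 in wild type, with no tested feature at Rpe65, Lrat or Rgr.

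At 4 of 8 glial stress genes (Bcl3, Cebpd, Fgf2 and Socs3), 5 of 5 features were higher, where 15.6% of all tested features were. They summed to 806 to 1464 in the knockout and 236 to 405 in wild type. The most abundant of them was MSTRG.34675, on the strand of Cebpd, at 831 ± 243 in Nrl knockout and 228 ± 48.8 in wild-type libraries. The 3 tested features at Müller glia genes included 1 that was lower, as did the 5 at amacrine genes, where 12.6% of all tested features were. The single one at the ganglion cell gene Rbpms was not called, and horizontal cell and microglial genes had no tested feature. The part of each cell type in the differences at Otx2 and Otx2os1 was not tested.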

How the data were processed

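Non-coding RNA was profiled in 6 Nrl knockout and 5 wild-type retina libraries. The signal values analysed are read counts that the authors divided by DESeq2 size factors and deposited; the file's name says so and gives mm10. Columns headed as log2 fold change, its SE, Wald score and p-value were deposited as the authors' comparison of the genotypes. In 100% of features the Wald score has the sign opposite to the fold change. The authors' directions were therefore taken from the fold change. Tools named without roles in the submitters' processing notes are Cuffdiff, Cufflinks 2.2.1 and TopHat2 2.0.10, with builds mm9 and mm10. The sources used here do not give the assembler, the counting tool or strand use in counting.

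The table's 36180 lines hold 36097 features, 83 listed with 2 lines and used 1 time. Its starts count from 0, so 1 was added. In every library 100% of values were whole multiples of the value of 1 read (tolerance 0.001). The main test was limma 3.58.1 in R 4.3.3 (trend and robust, group only, two-sided) on log2(normalised count + 1) over features with a mean of at least 5, with Benjamini-Hochberg adjustment over all 21395 and calls at an adjusted p under 0.05. It was tested on simulated data. Single features also got an exact two-sided permutation test over all splits of 11 libraries into 6 and 5. edgeR 4.0.16 (quasi-likelihood) and DESeq2 1.42.0 used whole reads of 9 libraries, without knockout 2 and wild-type 5, where 1 read is worth 1.0097 and 1.0087 normalised counts; edgeR called 26.8% and DESeq2 25.6% of features. Alternatives changed the pseudocount, the filter, the scaling, the variance moderation, the replicate block and 1 library at a time. The fit with the block left out knockout library 6. limma on the 9 libraries was added after the data were seen.

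The locus, its features and all gene lists were chosen with earlier results of these data known. Values in each library are given for features over an Otx2 or Otx2os1 exon, for called features and for the 3 most abundant of each strand, except that the 6 knockout values are given as lowest, median and highest. The 5 features most like 1 feature over Otx2 and 1 inside Otx2os1 were sought among those with a mean of at least 20. Sequences were taken from RefSeq and GENCODE M21 transcripts.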

Additional observations from a re-analysis of the deposited data

Results flagged for a closer look

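In 46 groups of 4 to 10 libraries, 2 single values lay far from the rest of their group by a gap test at the 95% level, where chance flags about 1 in 20 groups. Both were in wild-type library 1. MSTRG.27954, opposite the Gm49120 intron, stood at 34.3 normalised counts there, and the other 4 wild-type libraries were at 6.77 to 11.3. MSTRG.27985, near the 3′ end of Otx2os1, stood at 443 there, and the others were at 755 to 864.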

How the results depend on the processing

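The count of locus features higher in the knockout (11) stayed within 9 (mean of at least 20) and 13 (no filter on the mean) under all alternatives run, and was 11 to 12 when 1 library was left out. The count of lower features was 2, and 4 with no filter on the mean and 4 with the replicate block; it was 3 with the variance moderated without trend and robust, and 2 to 3 without 1 library. Without the filter the low features MSTRG.27991 and MSTRG.27992 were tested too and were called, and for the block the cause was not tested. Whether equal replicate numbers mark paired libraries is not settled by the data: the deviations of same-numbered knockout and wild-type libraries correlated at 0.294, 0.00135, 0.123, 0.0512 and 0.273 for numbers 1 to 5, not all above 0.1. For numbers 1 and 5 this was above each correlation of that knockout library with a wild-type library of another number (highest 0.059 and 0.143). For numbers 2, 3 and 4 it was not (highest 0.341, 0.163 and 0.111). The labels give no shared animal or batch, so the block was not used in the main test. The block was fitted on the libraries numbered 1 to 5 and so left out knockout library 6. With it, 12 features were higher and 4 lower, with calls added for MSTRG.27973, MSTRG.27975 and MSTRG.27985. The log2 difference of MSTRG.27984 (-0.08) ranged between -0.22 and 0.031 without 1 library, turning to 0.00078 without knockout replicate 1 and 0.031 without knockout replicate 2, and was 0.10 in limma on 9 libraries, 0.14 in edgeR and 0.11 in DESeq2, and it was called in none of these. MSTRG.27975 passed in 10 settings (limma, edgeR or DESeq2 adjusted p 0.00178 to 0.0410). MSTRG.27985 passed as lower without wild-type library 1, without knockout library 5 and with the block (limma adjusted p 0.00665 to 0.0225). Scaling moved the median of all tested features from -0.02 to -0.04 (TMM) and -0.02 (equal totals). With 1 library left out, 223 values kept direction and side of the threshold, 6 newly passed and 2 changed sign. Under the other alternatives 212 were kept, 9 newly passed, 2 no longer passed and 3 changed sign. At this depth features near 3 reads per library could not be compared.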
